A study of Mus musculus with 2 samples.

Results

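The genes described here run the entry of newly made proteins into the endoplasmic reticulum (ER), their folding, glycosylation and quality control there, their exit to the Golgi, and the unfolded protein response that adjusts this capacity. They are a list of 60 mouse genes, matched by the gene name that the array files give to each probe. Of the 60, 58 were on the array by that name, out of 27827 gene names on the array, with 117 probes. The other two, Manf and Srp54, are carried under Armet and Srp54a and are given separately. Secreted proteins are recognised by the signal recognition particle, threaded through the Sec61 channel, trimmed by signal peptidase, glycosylated by oligosaccharyltransferase, and folded with the help of chaperones and disulfide isomerases. When unfolded protein builds up, sensors in the ER membrane, among them IRE1 (Ern1), PERK (Eif2ak3) and Atf6, start a programme that raises many of these genes, partly through the transcription factor Xbp1. In the stomach, gland cells that secrete mucus or digestive zymogens are known for a large ER.

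The RNA came from the pyloric stomach, the part next to the intestine. The mice were Lgr5-EGFP-ires-CreERT2 knock-in animals, whose green fluorescent protein (GFP) is driven by the promoter of Lgr5, a Wnt pathway receptor and stem cell marker. Tissue of 20 mice was pooled and sorted into cells with high GFP (GFPhigh) and cells with low GFP (GFPlow). Both populations carry the knock-in allele, so there is no population without it, and the sort reads the reporter rather than Lgr5 protein. RNA of both populations was hybridised together on 2 Agilent two-colour arrays, with Cy3 marking GFPhigh on array 1 and Cy5 marking it on array 2. The series describes RNA of these populations on both arrays in a colour switch, and no label gives separate sorts or extracts. The arrays were therefore taken as dye-swapped measurements of the same RNA samples, 1 replicate per population. On that reading no test was possible, and an SD over the 2 arrays covers technical error only. The sorted gene itself, Lgr5, had log2 signals of 9.85 and 9.47 in GFPhigh on arrays 1 and 2, against 7.52 and 7.23 in GFPlow, a mean log2 ratio of 2.28 ± 0.06. The design compares the populations, and the list asks whether GFPhigh cells carry a raised secretory programme.

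Well above background were 28.6% and 18.7% of gene spots for GFPhigh on arrays 1 and 2, and 25.1% and 31.7% for GFPlow, and 0 gene spots were saturated. A gene counted as measured where a probe's brighter population stood well above background on each array, and each gene was represented by its brightest such probe. By that filter 52 of the 58 genes were measured, among 7835 genes in all, and 50 of the 52 passed in each population on each array. Ern1, Sel1l, Derl3, Sec62, Stt3a and Sec24d were not measured. All ratios are log2 of GFPhigh over GFPlow after loess normalization within each array, given for array 1, array 2 and as mean ± SD of the arrays, and levels are log2 normalized intensities of one probe. Because the RNA is bulk, more cells of a secretory type in GFPhigh and more of these transcripts per cell cannot be told apart.

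Most ER genes were slightly to moderately higher in GFPhigh, and few by a large factor. The median of the 52 measured genes was 0.46, with a range of -0.48 to 1.84, against -0.06 for the 7783 other measured genes. It was 0.40 on array 1 and 0.48 on array 2. Creb3l4 was the single gene at least 2-fold higher on each array (1 of 52, with 1.76% of all measured genes past that line), and 0 of 52 were at least 2-fold lower on each array, with 2.69% of all genes. At 1.5-fold on each array, 7 of 52 were higher, where 5.59% of all genes were: Creb3l4, Kdelr3, Herpud1, Mcfd2, Kdelr2, Sec61a1 and Ero1lb. Of these, Ero1lb passed the filter through GFPhigh only, and second measured probes of Kdelr2 and Sec61a1 did not pass that line. None (0 of 52) was lower at that fold, where 7.50% of all genes were. On both arrays 42 of 52 genes had a ratio above 0, with 28.1% of all genes. Only Hsp90b1, Pdia5 and Ero1l (3 of 52) were below 0 on both, with 36.6% of all genes, and 7 had opposite signs on the arrays.

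The sign of the ER median depends on the normalization, and the ER median was above that of all genes with each one. Median centring sets the median over all spots used on an array to 0 and leaves out the loess curve, so it moved genes by unequal amounts. With it the median of the ER genes turned to -0.27, but that of all measured genes was then -0.49, and 39 of 52 ER genes lay above it. With the arrays centred on 10 spike-in probes, which lowers each loess ratio by 0.78, the ER median was -0.33 over 51 genes and that of all genes -0.81, with 45 ER genes above it. The distance between the ER genes and all genes was 0.51 with loess, 0.48 with spike-in centring and 0.22 with median centring. Under median centring the list thus also lay nearer to the other genes. Spike-in centring shifts every loess ratio alike, so it could change this distance only through which probes passed the filter. Statements that a gene is higher in GFPhigh refer to loess, and a role whose median changed sign with another centring is named as such. Xbp1, Eif2ak3, Creb3l4, Dnajb9, Herpud1, Kdelr3 and Mcfd2 kept a ratio above 0 in every setting run, each array alone included, and Pdia5 kept one below 0. With the scanner software's processed signals, 11 of the 52 ratios kept their sign but were over 1.5 times as large, among them Creb3l1 (1.07), Dnajb9 (1.48), Eif2ak3 (1.37), Edem2 (0.92), Sec63 (0.79), Rpn1 (0.43), Spcs3 (0.25) and Canx (-0.45).

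**Figure D1:**
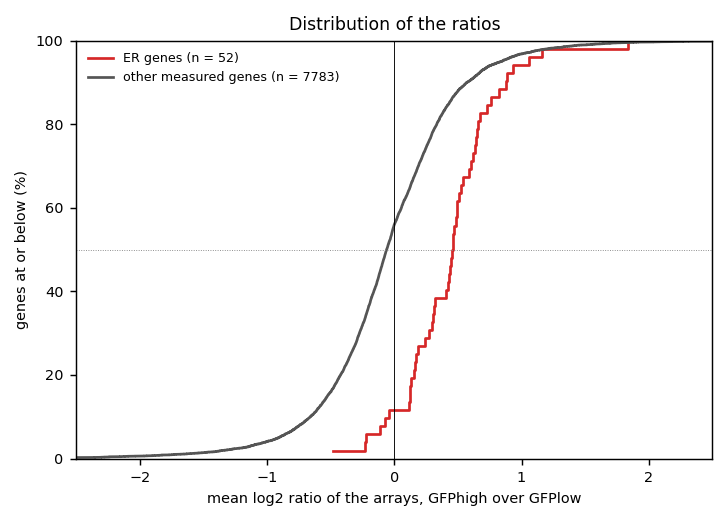
Percentage of genes (vertical axis) at or below a given mean log2 ratio of GFPhigh over GFPlow (horizontal axis, drawn from -2.5 to 2.5), for the 52 measured ER genes (red) and the 7783 other measured genes (grey), after loess. The red curve lies to the right through most of its course, with medians of 0.46 and -0.06, and the sign of the ER median turned to -0.27 with median centring and -0.33 with spike-in centring.

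The probes of ER genes were mostly bright: 40 of the 52 lay in the brighter 2 of 4 equal parts of the measured genes by average signal. From the dimmest to the brightest part, the ER genes numbered 3, 9, 8 and 32. Their medians were 0.45, 0.51, 0.36 and 0.44, against -0.11, -0.03, -0.04 and -0.01 for the other genes in the same parts. In each part the ER median was above that of the other genes. Across the parts, 46 of 52 (88.5%) were above the median of the other genes in the same part. Set against the other genes of any signal, 37 were above the upper quartile and 1 was below the lower quartile.

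Some promoters of the list hold the letters of elements known from the unfolded protein response, and those windows are shown because the genes behind them include its classical targets. Promoter windows from RefSeq (GRCm38.p6), running from 250 bases before to 50 bases after the annotated start, were found for 49 of the 60 genes. The ER stress element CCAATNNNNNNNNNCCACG, searched on both strands, was found in 9 of the 49 (18.4%) and in 37 of all 27025 genes in the table (0.14%). The measured genes that hold it are Hspa5, Hsp90b1, Calr, Canx, Dnajc3, Pdia6, Ero1lb and Syvn1, and Derl3 holds it but was not measured. Their matches are printed 5′ to 3′ on the gene's strand with 20 bases on either side. The capitals mark CCAAT and CCACG, or their reverse complements ATTGG and CGTGG, and Hsp90b1 has 2 matches in opposite directions.
Hspa5 (chr2:34772005-34772063, plus strand): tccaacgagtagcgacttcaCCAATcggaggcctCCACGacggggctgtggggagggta
Hsp90b1 (chr10:86705513-86705676, minus strand): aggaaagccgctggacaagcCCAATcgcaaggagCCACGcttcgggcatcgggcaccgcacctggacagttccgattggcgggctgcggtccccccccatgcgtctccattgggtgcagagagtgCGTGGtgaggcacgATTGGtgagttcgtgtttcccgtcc
Calr (chr8:84847055-84847113, minus strand): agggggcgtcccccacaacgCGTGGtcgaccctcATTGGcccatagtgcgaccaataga
Canx (chr11:50325780-50325838, minus strand): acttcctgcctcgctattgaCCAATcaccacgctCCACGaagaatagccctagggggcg
Dnajc3 (chr14:118937807-118937865, plus strand): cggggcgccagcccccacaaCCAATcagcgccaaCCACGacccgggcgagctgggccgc
Pdia6 (chr12:17266471-17266529, plus strand): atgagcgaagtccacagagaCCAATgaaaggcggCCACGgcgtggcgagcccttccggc
Ero1lb (chr13:12565662-12565720, plus strand): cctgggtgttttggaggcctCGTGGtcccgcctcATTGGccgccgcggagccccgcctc
Syvn1 (chr19:6046512-6046570, plus strand): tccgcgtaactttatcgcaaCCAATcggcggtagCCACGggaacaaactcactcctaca

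A shorter form, ER stress element II (ATTGGNCCACG), was found in Dnajb11 and Herpud1 (2 of 49, 4.1%) and in 12 of 27025 genes (0.04%). The unfolded protein response element TGACGTGG, whose reverse strand CCACGTCA contains the CCACG of the ER stress element, was found in Kdelr3 and Sec24d (2 of 49, 4.1%), against 193 of 27025 genes (0.71%). The cyclic AMP response element TGACGTCA was in 0 of the 49 and in 549 of 27025 genes (2.03%). The windows of Herpud1 and Kdelr3 are shown because these genes had similar ratios on both arrays, with the element in capitals.
Herpud1 (chr8:94386357-94386407, plus strand): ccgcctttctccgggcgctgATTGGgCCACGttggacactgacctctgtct
Kdelr3 (chr15:79516358-79516405, plus strand): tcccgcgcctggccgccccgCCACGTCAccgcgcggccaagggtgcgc

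Together 13 of 49 genes (26.5%) had 1 of these first 3 elements, against 239 of 27025 (0.88%). The list includes classical targets of the response, so these shares describe the list and not the sorted cells. The genes with and without an element had similar medians, and the difference was not tested. The median was 0.42 for the 11 measured genes with an element (range -0.22 to 1.06) and 0.47 for the 31 measured genes without (range -0.48 to 1.84). The 3 windows of Creb3l4, the gene with the highest ratio, held no match. A match is a description of these letters and does not show that a factor binds there.

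**Figure D2:**
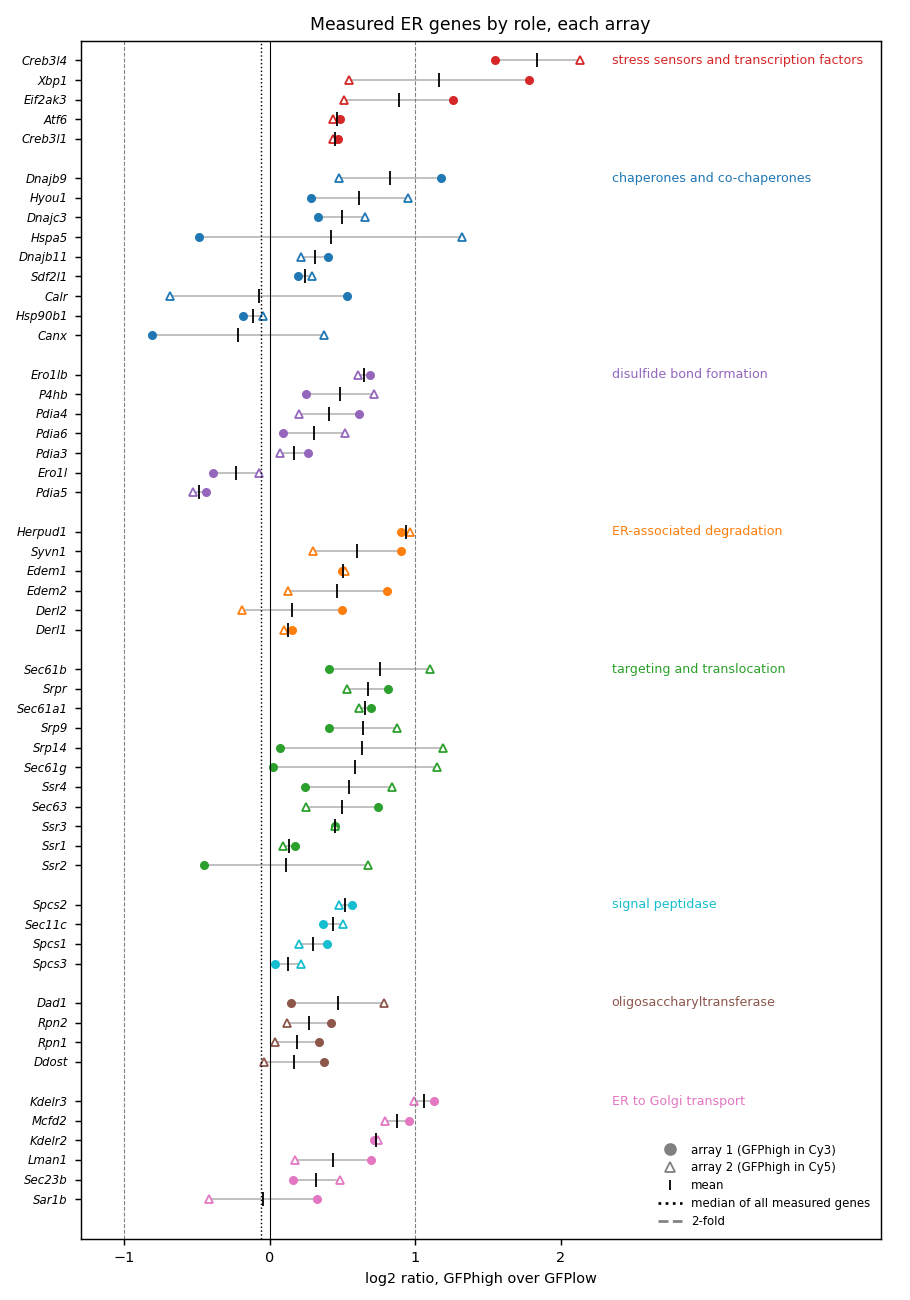
Log2 ratio of GFPhigh over GFPlow (horizontal axis) of each of the 52 measured ER genes, grouped by role, on array 1 (filled circles, GFPhigh in Cy3) and array 2 (open triangles, GFPhigh in Cy5), with the mean as a vertical tick. The dotted line is the median of all measured genes (-0.06) and dashed lines mark 2-fold. Only Creb3l4 lies beyond 2-fold on both arrays, and 7 genes straddle 0. Zero is set by loess, and spike-in centring would move it by 0.78 to the right.

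With loess, the stress sensors and their transcription factors had the highest median of the 8 roles by the mean of the arrays. Creb3l4 and Xbp1 among them had the highest mean ratios of the list. The role's median was 1.26 on array 1 but 0.51 on array 2. On array 2 the medians of targeting and translocation (0.68) and ER to Golgi transport (0.61) were higher. All 5 measured genes of the role (5 of 6 listed) were above 0 on both arrays, with 28.1% of all genes, and the median of the role was 0.89. It was the only role among the 8 whose median stayed above 0 under both other centrings, at 0.45 with median centring and 0.10 with spike-in centring. Creb3l4, a transcription factor of the CREB3 family that is held in the ER membrane and freed by cleavage, had levels of 12.99 and 13.30 in GFPhigh on arrays 1 and 2, against 11.45 and 11.17 in GFPlow. Both GFPhigh values lay above both GFPlow values. Its ratios were 1.55 and 2.13, mean 1.84 ± 0.41, or 3.58-fold, the rank of 35 from the top among 7835 genes. The probe lies at chr3:90041531-90041590 on the minus strand (mm9, per the file headers), and the ratio was 0.98 with median centring and 1.06 with spike-in centring.

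Xbp1, the transcription factor activated when IRE1 splices its messenger RNA, came second. Its levels were 10.46 and 9.67 in GFPhigh on arrays 1 and 2, against 8.68 and 9.12 in GFPlow, so both GFPhigh levels were the higher ones. The ratio was 1.79 on array 1 but 0.54 on array 2, mean 1.16 ± 0.88, and so more than 2-fold on 1 array only. Xbp1 is represented by 1 probe (chr11:5424970-5425029, plus strand, mm9), which gives total signal, and splicing was not measured. Ern1, which encodes the enzyme that splices it, was not measured on these arrays.

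Eif2ak3, which encodes PERK, the kinase that slows translation under ER stress, had levels of 8.62 and 8.27 in GFPhigh, against 7.36 and 7.76 in GFPlow. Here too both GFPhigh values were the higher ones, with ratios of 1.26 and 0.51, mean 0.89 ± 0.53. Atf6, the sensor that is cleaved in the Golgi to become a transcription factor, had a mean of 0.46 ± 0.04 with nearly equal ratios of 0.49 and 0.43. Creb3l1, a relative of Creb3l4 known for its role in collagen secretion by bone cells, had 0.45 ± 0.03, with ratios of 0.47 and 0.43. Both of these lay below 0 with spike-in centring, at -0.32 for Atf6 and -0.33 for Creb3l1.

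The luminal chaperones, the best known targets of the response, were the least uniform role. Of 9 measured genes, 5 were above 0 on both arrays and 1 below, with 28.1% and 36.6% of all genes, and 3 had opposite signs. Their median was 0.31, and it turned to -0.44 with median centring and -0.47 with spike-in centring. Hspa5, which encodes BiP, the main Hsp70 chaperone of the ER and the standard read-out of ER stress, could not be given a direction. It had levels of 12.26 and 13.32 in GFPhigh on arrays 1 and 2, against 12.74 and 12.00 in GFPlow. The levels of the populations overlapped, and the ratios of -0.48 and 1.32 differed more between the arrays than those of any other ER gene measured (mean 0.42 ± 1.28). This is 1 probe, and its promoter carries the ER stress element printed above.

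The lectin chaperones Calr and Canx, which hold newly glycosylated proteins, also had opposite signs on the arrays. Calr had 0.53 and -0.68, mean -0.07 ± 0.86, and Canx had -0.81 and 0.37, mean -0.22 ± 0.84. The second Calr probe gave a mean of 0.04, and the 3 probes of Canx gave means between -0.34 and -0.21. Hsp90b1, the ER member of the Hsp90 family (GRP94), had ratios of -0.19 and -0.04, but its second probe had a mean of 0.32. The promoters of Calr, Canx and Hsp90b1 each hold an ER stress element within the window searched.

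The co-chaperones were more evenly on the positive side. Dnajb9 (ERdj4), a J protein that assists BiP, had levels of 8.41 and 7.90 in GFPhigh, against 7.24 and 7.42 in GFPlow. Its GFPhigh values were both above the GFPlow ones, with ratios of 1.17 and 0.47, mean 0.82 ± 0.50. Hyou1, a large Hsp70 relative that exchanges nucleotide on BiP, had 0.28 and 0.95, mean 0.62 ± 0.47. Dnajc3 (p58IPK), known to restrain PERK, had a mean of 0.49 ± 0.23, Dnajb11 one of 0.31 ± 0.13 and Sdf2l1 one of 0.24 ± 0.07. Armet, the array's name for Manf, had 0.04 and 0.72, mean 0.38 ± 0.48.

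Disulfide bond formation had a median of 0.31 over 7 measured genes, which turned to -0.47 with median centring and -0.55 with spike-in centring (6 genes). Its members lay on both sides of 0. Ero1lb (Ero1b), an oxidase of secretory cells that recharges the disulfide isomerases, had levels of 7.87 and 7.69 in GFPhigh, against 7.18 and 7.08 in GFPlow. The ratios were 0.69 and 0.61, mean 0.65 ± 0.06. GFPlow was above background on 1 array only, so the gene entered through GFPhigh. It dropped out of the filter with spike-in centring, where its unfiltered ratio was -0.13, and it was 1.36 with processed signals. Ero1l (Ero1a), the more widely expressed oxidase, was on the other side, with ratios of -0.39 and -0.07. GFPhigh was not well above background for it on either array, so the value is a bound, at least 1.15-fold lower in GFPhigh, and the ratio was -1.03 with processed signals.

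Pdia5 was the one isomerase with a lower value in GFPhigh on both arrays. Its levels were 8.52 and 8.55 in GFPhigh, against 8.96 and 9.08 in GFPlow. Both GFPhigh levels lay below both GFPlow levels, and the ratios of -0.44 and -0.53 (mean -0.48 ± 0.06) gave the lowest mean of the 52 genes. The isomerases that are most widely known in secretory cells were above 0 on both arrays: P4hb (protein disulfide isomerase itself) with 0.48 ± 0.33, Pdia4 with 0.41 ± 0.29, Pdia6 with 0.31 ± 0.30 and Pdia3 with 0.17 ± 0.14.

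ER-associated degradation, which sends misfolded proteins back to the cytosol for the proteasome, had a median of 0.49 over 6 measured genes, turning to -0.08 with median centring and -0.30 with spike-in centring. Herpud1, a stress-induced membrane protein that organises the degradation complex, was among the most repeatable genes of the list. Its levels were 11.83 and 11.89 in GFPhigh, against 10.93 and 10.92 in GFPlow. The values of the arrays nearly coincided within each population, with ratios of 0.90 and 0.96, mean 0.93 ± 0.04, or 1.91-fold. Syvn1, the ubiquitin ligase HRD1, had 0.91 and 0.30, mean 0.60 ± 0.43. Edem1 and Edem2, which help select glycoproteins for degradation, had means of 0.51 ± 0.02 and 0.46 ± 0.48. A second measured probe of Edem1 had opposite signs of 0.47 and -0.06, mean 0.20 ± 0.37. The derlins, which take part in moving proteins out of the ER, had lower values. Derl1 had 0.12 ± 0.04 by its brightest probe, the lowest of its 4 measured probes, whose means ran up to 0.45. Its mean over the probes was 0.28, and it was 0.50 with processed signals. Derl2 had 0.15 ± 0.48, with opposite signs on the arrays.

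Targeting and translocation had a median of 0.58 over 11 measured genes of the 12 on the array. Of the 11, 10 were above 0 on both arrays, with 28.1% of all genes. The median turned to -0.26 with median centring and -0.20 with spike-in centring. Sec61a1, the pore of the channel, had levels of 13.27 and 13.24 in GFPhigh, against 12.57 and 12.63 in GFPlow. Both GFPhigh levels lay above both GFPlow levels by this probe, with ratios of 0.70 and 0.61, mean 0.66 ± 0.06. A second measured probe gave 0.78 and -0.05, mean 0.36 ± 0.59, so whether Sec61a1 passes 1.5-fold on both arrays depends on the probe. The small subunits of the channel also differed between the arrays, with ratios of 0.41 and 1.10 for Sec61b (mean 0.76 ± 0.49) and 0.02 and 1.15 for Sec61g (0.58 ± 0.80). Srpr, the receptor of the signal recognition particle, had 0.81 and 0.53, mean 0.67 ± 0.20. Its second measured probe gave 1.28 and 1.03, past 2-fold on both arrays, so whether Srpr passes that line depends on the probe.

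The particle's own proteins Srp9 and Srp14, which form its Alu domain, had means of 0.64 ± 0.33 and 0.63 ± 0.79, with Srp14 at 0.07 on array 1 and 1.19 on array 2. Srp54a had -0.10 and 0.89, mean 0.40 ± 0.70. Sec63, which couples the channel to BiP, had 0.49 ± 0.35. Of the 4 subunits of the translocon-associated complex, Ssr3 had equal ratios of 0.45 and 0.45 by its brightest probe. The means of its 3 measured probes ran from 0.11 to 0.53. Ssr4 had a mean of 0.54 ± 0.42, but its second measured probe gave 0.37 and -0.07, mean 0.15 ± 0.31. Ssr1 had 0.13 ± 0.06, and Ssr2 had opposite signs of -0.45 and 0.68. The 3 genes of this role whose arrays were over 1 log2 unit apart (Srp14, Sec61g and Ssr2) all had the larger ratio on array 2.

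Signal peptidase and oligosaccharyltransferase, which process the incoming chain, had mostly small positive ratios. All 4 signal peptidase genes were above 0 on both arrays, with 28.1% of all genes. Their median of 0.36 turned to -0.36 with median centring and -0.42 with spike-in centring. Spcs2 had 0.52 ± 0.06, the catalytic subunit Sec11c 0.43 ± 0.10, Spcs1 0.30 ± 0.14 and Spcs3 0.12 ± 0.12. Oligosaccharyltransferase, which attaches N-glycans, had the lowest role median, 0.23 over 4 measured genes, and it turned to -0.63 and -0.55. With median centring it was also the one role below the median of all genes, with a difference of -0.14. The chaperones and disulfide bond formation were then nearly level with all genes, at differences of 0.05 and 0.02. Its members had means of 0.47 ± 0.45 for Dad1, 0.27 ± 0.21 for Rpn2, 0.19 ± 0.21 for Rpn1 and 0.17 ± 0.29 for Ddost.

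Transport between ER and Golgi had a median of 0.58 over 6 measured genes, turning to -0.15 with median centring and -0.20 with spike-in centring, and 3 of the 6 were at least 1.5-fold higher on each array, with 5.59% of all genes. Kdelr3, a receptor that returns escaped ER proteins bearing a KDEL signal, had levels of 8.58 and 8.44 in GFPhigh, against 7.45 and 7.45 in GFPlow. The ratios of 1.13 and 0.99, mean 1.06 ± 0.10 or 2.09-fold, put it just short of 2-fold on array 2. Kdelr2, its relative, had levels of 11.30 and 11.57 in GFPhigh, against 10.58 and 10.83 in GFPlow, and a mean of 0.73 ± 0.02. The second Kdelr2 probe gave a mean of only 0.11, and with median and spike-in centring Kdelr2 was at -0.05.

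Mcfd2 and Lman1 form the cargo receptor known for carrying coagulation factors in humans. Mcfd2 had levels of 11.27 and 11.09 in GFPhigh, against 10.31 and 10.29 in GFPlow, and both GFPhigh values were the higher ones (mean 0.88 ± 0.12). Lman1 had 0.43 ± 0.37, and its 2 probes disagreed in sign, with means of 0.43 and -0.21. The coat proteins differed too: Sec23b, of the COPII coat, had 0.32 ± 0.23, while Sar1b, the GTPase that starts the coat, had 0.33 and -0.42.

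**Figure D3:**
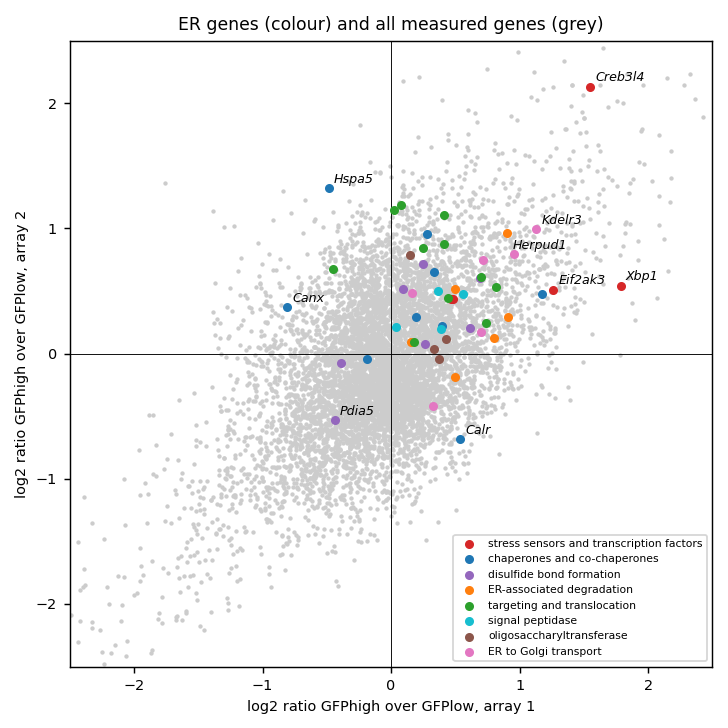
Log2 ratio of GFPhigh over GFPlow on array 1 (horizontal axis) against array 2 (vertical axis) for the 52 measured ER genes, coloured by role, and all measured genes in grey. Axes end at 2.5, which leaves 45 genes outside. ER genes gather in the upper right, where 42 of 52 lie above 0 on both arrays, while Hspa5 and Canx lie at the upper left and Calr at the lower right. Zero is set by loess; median or spike-in centring moves the ER median below 0.

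The order of the ER genes differed between the arrays. Pearson's r between array 1 and array 2 was 0.235 over the 52 ER genes and 0.597 over all 7835 measured genes, as a description, since genes are not independent replicates and the ER genes span a narrower range. The median distance between the arrays was 0.32 for ER genes and 0.38 for all genes. Over 1 log2 unit apart were 7 of 52 ER genes (13.5%) and 7.87% of all genes. These 7 were Xbp1, Hspa5, Calr, Canx, Srp14, Sec61g and Ssr2.

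Other genes of the same pathways had a smaller median. Of 91 further genes of folding, translocation, degradation, transport, their regulation and the PERK branch, 71 were measured, with a median of 0.35. Of these, 3 were at least 2-fold higher on each array (Ppib, Pdia2 and Spdef) and 0 were lower, with 1.76% and 2.69% of all genes. At 1.5-fold 14 were higher and 0 lower, with 5.59% and 7.50% of all genes. The further folding genes had a median of 0.56 over 15 genes, turning to -0.10 with median centring and -0.22 with spike-in centring. Ppib, the proline isomerase cyclophilin B, had levels of 14.37 and 15.00 in GFPhigh, against 12.96 and 12.86 in GFPlow, a mean of 1.78 ± 0.52. Pdia2, an isomerase first known from the pancreas, had 11.21 and 10.96 in GFPhigh, against 9.59 and 9.34 in GFPlow, with a ratio of 1.62 on each array. For each of these genes both GFPhigh levels lay above both GFPlow levels.

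Among the further regulators (median 0.72 over 5 genes, 0.20 with median centring and -0.06 with spike-in centring), Spdef, a transcription factor of mucous and goblet cells, had 1.64 ± 0.18. BhlhA15 (Mist1), which sets up the secretory apparatus of zymogen cells, had 1.07 ± 0.30. The further transport genes had a median of 0.37. All 22 measured were above 0 in the mean with loess, where 44.3% of all genes were. With median centring 4 of the 22 were above 0, and with spike-in centring 1 was. Mia3, which helps load bulky cargo, led with 1.17 ± 0.33, then Sec31a of the outer COPII coat with 0.75 ± 0.32. The further translocation and glycosylation genes had a median of 0.22, turning to -0.42 and -0.56, with Sec11a at 0.68 ± 0.53 and Srp72 at 0.53 ± 0.08. The further degradation genes had a median of -0.00 over 11 genes, within 0.05 of all genes with loess, 0.00 with median centring and 0.03 with spike-in centring. Among them H47 (Selenos) had 1.08 ± 0.82 and Os9, a lectin of the pathway, 1.01 ± 0.45.

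Targets of the PERK branch had a median of 0.34 over 7 measured genes, turning to -0.08 with median centring and -0.44 with spike-in centring. Of the 7, 0 were past 2-fold on each array, with 1.76% of all genes higher and 2.69% lower. At 1.5-fold on each array 2 of 7 were higher and 0 lower, with 5.59% and 7.50% of all genes. Vldlr, a lipoprotein receptor, had 1.28 ± 0.70 and Asns, which makes asparagine, 0.91 ± 0.34. The transcription factors that define the branch were nearer to 0, with 0.11 ± 0.04 for Atf4 and 0.34 ± 0.14 for Ddit3 (CHOP), and Trib3 and Chac1 were not measured. The cytosolic heat shock genes, which respond to unfolded protein outside the ER, lay on the other side of 0, with a median of -0.31 over 7. Hsph1 had -1.03 ± 0.27 and Hsp90aa1 -0.94 ± 0.29. They were below the median of all genes under loess, median and spike-in centring, with differences of -0.26, -0.59 and -0.28.

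**Figure D4:**
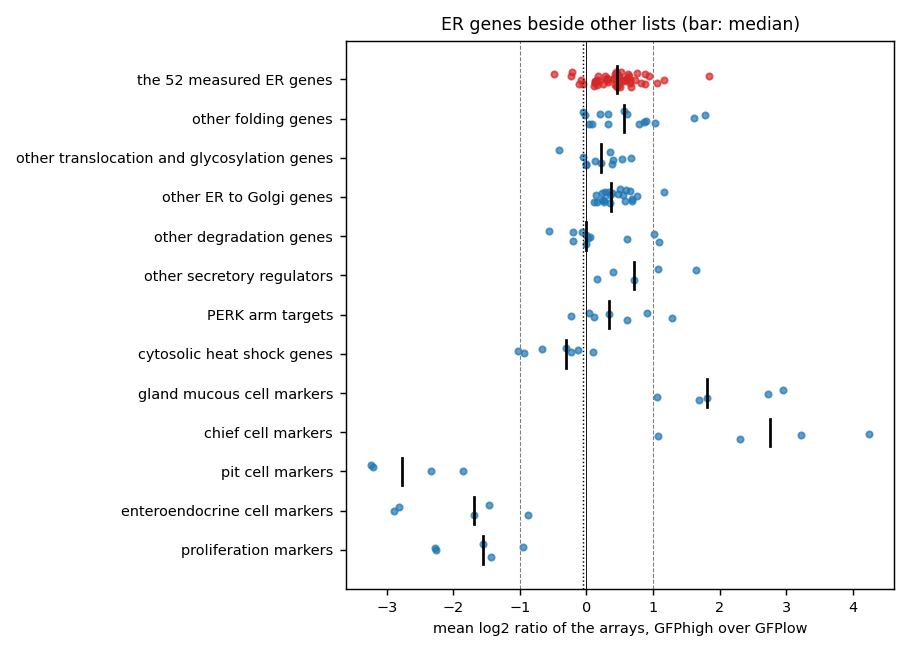
Mean log2 ratio of GFPhigh over GFPlow (horizontal axis) of each measured gene in the ER list (red) and in other lists (blue), with a black bar at each median and a dotted line at the median of all genes (-0.06). The ER median of 0.46 lies between the gland mucous and chief cell markers (1.82 and 2.77) and the pit, enteroendocrine and proliferation markers (-2.77, -1.68 and -1.55). Zero is set by loess. With median or spike-in centring the ER median lies below 0, and the 5 marker medians keep their sign.

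Markers of several cell types also differed between the populations. For comparison, 28.1% of all genes were above 0 and 36.6% below 0 on both arrays. Markers of gland mucous cells were higher in GFPhigh in 5 of 5 genes on both arrays (median 1.82). These were 1190003M12Rik (Gkn3) with 2.96 ± 1.51, Aqp5 with 2.72 ± 0.92, Tff2 with 1.82 ± 1.22, Cd44 with 1.70 ± 0.62 and Muc6 with 1.06 ± 0.28. Markers of zymogen-making chief cells were higher in 4 of 4 (median 2.77), with 4.25 ± 0.82 for Gif (Cblif, intrinsic factor), 3.22 ± 0.69 for Pgc and 2.31 ± 0.66 for Pga5. The remaining marker was BhlhA15 (1.07 ± 0.30), which is also counted among the further regulators above. Pit cell markers were lower in 4 of 4 (median -2.77), with -3.24 ± 0.55 for Gkn2, -3.20 ± 1.12 for Tff1 and -2.33 ± 0.37 for Muc5ac, and Gkn1 at least 3.07-fold lower, since GFPhigh was not well above background. Enteroendocrine markers were lower in 5 of 5 measured of 6 (median -1.68), with -2.90 ± 0.51 for Chgb, -2.82 ± 0.71 for Ghrl, -1.68 ± 0.03 for Sst and -1.46 ± 0.15 for Chga. Proliferation markers were lower in 5 of 5 (median -1.55), with -2.28 ± 0.20 for Mki67, -2.26 ± 0.10 for Birc5, -1.55 ± 0.06 for Ccnb1, above background in GFPhigh on 1 array, and -1.43 ± 0.10 for Mcm5. The part of these cell types in the ER ratios was not tested.

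Of 8 plasma and B cell markers, which mark antibody-secreting cells and their precursors, 6 were not measured, Igj and Cd79a among them. The 2 that were measured had opposite signs on the arrays, Sdc1 with a mean of -0.34 ± 0.71 and Pou2af1 with 0.06 ± 0.33. Of 6 fibroblast markers only Col1a2 was measured (0.60 ± 0.75), of 5 leukocyte markers only Cd14 (-0.31 ± 0.04), and of 4 parietal cell markers Atp4a (0.33 ± 0.86) and Atp4b (0.76 ± 0.56).

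**Figure D5:**
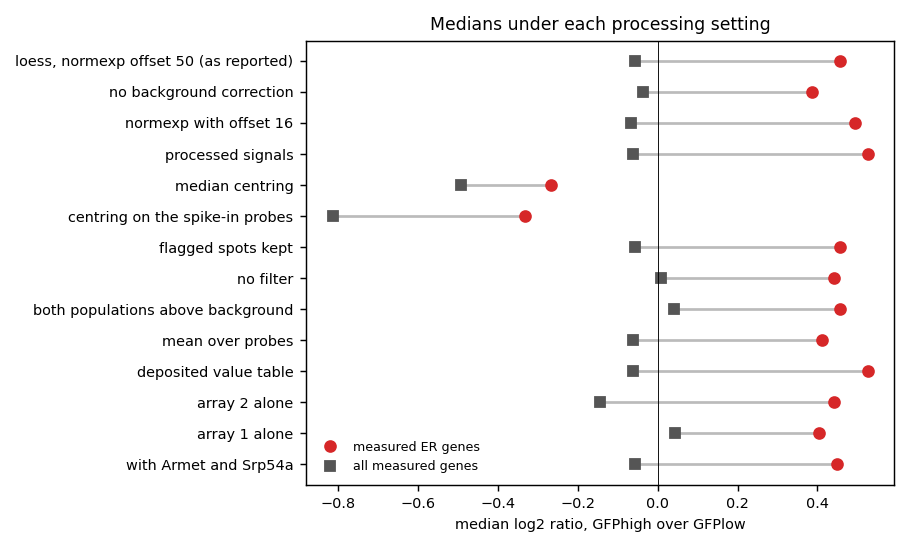
Median log2 ratio of GFPhigh over GFPlow (horizontal axis) of the measured ER genes (red circles) and of all measured genes (grey squares) under each processing setting (vertical axis). The ER median lies to the right of that of all genes in every setting drawn, by 0.51 as reported and by 0.22 with median centring. Both medians lie below 0 with median centring (-0.27 and -0.49) and spike-in centring (-0.33 and -0.81).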

How the data were processed

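Scanner output of 2 two-colour arrays was analysed. Per the file headers, the deposited spot values are mean intensity and median background intensity per channel, processed intensity, and the log10 ratio of Cy5 over Cy3. The authors' value table gives the same log10 ratios with GFPhigh as numerator (largest differences 0.0000 and 0.0050, column medians 0.0188 and -0.0458 for arrays 1 and 2). It is empty at 22558 and 24241 spots, where the scanner ratio is exactly 0. The headers name Feature Extraction 10.5.1.1 and the submitters' processing notes name 9.5.3.

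Mean intensities were corrected with normexp (offset 50) and normalized by loess with limma 3.58.1 in R 4.3.3, with controls at weight 0. The offset pulls ratios of dim probes towards 0. Outlier spots were left out, which kept 41059 of 41174 probes, and 9498 were measured. Levels were scaled between arrays by Aquantile. Summaries used Python 3.11.15. For the bounds of Ero1l, Gkn1 and Top2a, the GFPlow mean was divided by a GFPhigh mean. In the latter each array's level was raised, where below it, to the dimmest level well above background.

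The members, lists and rules were chosen with earlier results of these data known, and 78 of the 117 ER probes were measured. Named were the ER genes past 2-fold on each array, up to 3 more per role by absolute mean ratio, those measured in 1 population and those not measured. Of each other list, genes past 2-fold or else the 2 largest were named. Further ER genes and lower-ranked genes of other lists were named after their values were seen. Steps were tested on simulated arrays. Promoter letters were read from a RefSeq table.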

Additional observations from a re-analysis of the deposited data

How the results depend on the processing

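No paired analysis was possible because both arrays were taken as carrying the same RNA samples and no test was made. The ER median of 0.46 was 0.39 without background correction, 0.53 with the processed signals (0.5253) and the value table (0.5256), and 0.40 to 0.44 on single arrays, each over the genes measured on that array (56 on array 2, 58 on array 1). It reversed to -0.27 with median centring and -0.33 with spike-in centring. Spike-in centring subtracts a constant from the loess ratios, while median centring moved the ER median more than that of all genes, and the cause was not tested. The count of ER genes higher in GFPhigh, 1 as reported, was 2 with a normexp offset of 16, 5 with the processed signals or the value table, 0 with median or spike-in centring, 7 at 1.5-fold, 3 with 2-fold in the mean, and 5 to 6 on single arrays. The count lower, 0 as reported, was 1 (Pdia5) with spike-in centring. Creb3l4 was past 2-fold in every setting run other than median and spike-in centring. For all genes, the counts higher and lower, 138 and 211 as reported, were 352 and 511 with the processed signals, 352 and 507 with the value table, 21 and 1634 with spike-in centring, 438 and 588 at 1.5-fold, and 249 and 317 with 2-fold in the mean. The count higher was 10 with median centring, and the count lower 139 with both populations above background. On single arrays they were 349 to 371 and 400 to 499. The centring on spike-in probes rests on 10 probes. The set with Armet and Srp54a (median 0.45), the split by signal and the unfiltered spike-in ratio of Ero1lb were added after the data were seen. One RNA sample per population limits every ratio, the difference between animals is not covered, and dim genes such as Ern1 were not measurable at these signals.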
